A study of Mus musculus with 4 samples.

Results

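Expression of 32 germline and piRNA pathway genes was compared between Usp28 KO (knockout) and control mouse embryonic stem cells. The 32 genes were taken by name from a fixed list, which was chosen with earlier results of these data known. Each symbol matched 1 gene among the 55401 of the deposited read count table through the GENCODE M21 annotation. The Usp28 KO group had 2 libraries with the genotype label Usp28 KO, and the control group had 2 libraries with the genotype label WT. All libraries came from R1 embryonic stem cells kept on 0.2% gelatin in 2i/LIF, that is N2B27 medium with 10 ng/ml LIF, 3 μM CHIR99021 (a GSK3 inhibitor) and 1 μM PD0325901 (a MEK inhibitor). The labels do not say whether the Usp28 KO libraries came from 1 clone or several, nor whether each library is a culture of its own. The p-values therefore describe no more than the variation among these 4 libraries, part or all of which may be technical.

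The genes were ordered by role: 9 of the piRNA pathway, 8 of meiosis, 7 encoding regulators of RNA or transcription in germ cells, and 8 other genes known for expression in testis. piRNAs are small RNAs of germ cells that guide PIWI proteins to transposon transcripts, and tudor-domain proteins and RNA helicases serve as scaffolds and processing factors in that pathway. Meiosis adds proteins of the synaptonemal complex, which holds paired chromosomes together, and a recombinase that works only in germ cells. In pluripotent cells many germline genes are held at low levels by promoter DNA methylation or by a Polycomb complex. That complex contains the DNA-binding proteins E2F6, MGA and MAX. Neither DNA methylation nor binding of the complex was measured in these libraries. The MGA and MAX pair binds the E-box sequence CACGTG.

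The promoters are shown first, because the E-box was more frequent in those of the members than over all genes. The members are a chosen list of germline genes, not a sample of all genes. The promoter shares therefore describe this list and cannot show an excess over background. RefSeq promoter windows (GRCm38.p6, the assembly of mm10) of 300 bases, 250 before and 50 after a transcription start, were found for 29 of the 32 genes, as 35 windows; Piwil2, Tex11 and Tex15 had no entry. The E-box CACGTG, which reads the same on both strands, lay in a window of 12 of the 29 genes (41.4%), against 8.09% of all 27025 genes with a window. Those 12 genes were Brdt, Ddx4, Hormad1, Mael, Mov10l1, Slc25a31, Stk31, Sycp1, Sycp3, Taf7l, Tdrd1 and Tdrd9. By role, the E-box was present for 6 of 8 piRNA pathway genes, 3 of 6 meiosis genes, 2 of 7 regulators and 1 of 8 other testis genes. The sequences below are the 250 bases before the start, 5′ to 3′ on the gene's strand, for 7 genes with an E-box that recur in the results; capitals mark CACGTG and the E2F-type motif GCGGGA on either strand.
Ddx4 (chr13:112652311-112652560, minus strand): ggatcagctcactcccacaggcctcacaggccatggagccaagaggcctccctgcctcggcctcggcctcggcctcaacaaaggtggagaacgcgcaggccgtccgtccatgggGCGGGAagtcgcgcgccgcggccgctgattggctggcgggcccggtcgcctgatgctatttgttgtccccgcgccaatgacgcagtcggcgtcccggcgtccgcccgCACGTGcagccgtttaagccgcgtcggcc
Mov10l1 (chr15:88982744-88982993, plus strand): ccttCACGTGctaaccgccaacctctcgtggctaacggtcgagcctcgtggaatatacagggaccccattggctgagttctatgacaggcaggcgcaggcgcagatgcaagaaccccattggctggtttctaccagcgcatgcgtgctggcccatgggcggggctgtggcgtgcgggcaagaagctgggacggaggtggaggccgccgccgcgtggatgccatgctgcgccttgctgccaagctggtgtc
Stk31 (chr6:49395354-49395603, plus strand): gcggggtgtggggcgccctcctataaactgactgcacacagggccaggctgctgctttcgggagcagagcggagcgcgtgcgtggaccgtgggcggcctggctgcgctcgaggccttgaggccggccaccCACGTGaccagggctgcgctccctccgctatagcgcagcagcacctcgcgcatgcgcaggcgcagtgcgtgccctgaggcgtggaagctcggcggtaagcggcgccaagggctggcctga
Tdrd1 (chr19:56825959-56826208, plus strand): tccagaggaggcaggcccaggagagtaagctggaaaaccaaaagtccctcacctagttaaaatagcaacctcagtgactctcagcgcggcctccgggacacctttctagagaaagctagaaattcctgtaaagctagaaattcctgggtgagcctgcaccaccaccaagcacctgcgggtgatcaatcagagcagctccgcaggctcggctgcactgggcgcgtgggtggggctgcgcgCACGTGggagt
Taf7l (chrX:134476491-134476740, minus strand): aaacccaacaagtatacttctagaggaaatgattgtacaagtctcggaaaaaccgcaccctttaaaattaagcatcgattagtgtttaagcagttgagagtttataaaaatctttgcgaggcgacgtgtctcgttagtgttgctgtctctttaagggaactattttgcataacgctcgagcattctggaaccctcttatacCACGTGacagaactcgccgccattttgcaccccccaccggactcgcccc
Sycp3 (chr10:88459337-88459586, plus strand): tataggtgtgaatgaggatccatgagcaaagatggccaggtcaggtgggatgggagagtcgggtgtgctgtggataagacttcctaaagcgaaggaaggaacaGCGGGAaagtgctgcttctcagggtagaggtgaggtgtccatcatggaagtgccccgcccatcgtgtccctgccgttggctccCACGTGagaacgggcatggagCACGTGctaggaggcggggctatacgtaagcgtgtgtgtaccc
Hormad1 (chr3:95559427-95559676, plus strand): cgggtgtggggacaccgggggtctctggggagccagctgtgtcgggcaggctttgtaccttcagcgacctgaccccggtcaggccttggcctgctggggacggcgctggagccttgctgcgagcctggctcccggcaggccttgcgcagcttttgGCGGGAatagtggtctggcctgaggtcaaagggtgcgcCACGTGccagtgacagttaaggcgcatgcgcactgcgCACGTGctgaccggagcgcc
The E-box stood once in each of the first 5 sequences, and 2 times in those of Sycp3 and Hormad1. Ddx4, Sycp3 and Hormad1 also held GCGGGA.

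The E2F-type motif, searched on both strands, was in a window of 10 of the 29 genes (34.5%), against 22.0% of all genes. The E-box and GCGGGA occurred together for 6 genes, and no match of one overlapped a match of the other. The promoters were also rich in CpG: the median ratio of observed to expected CpG was 0.713 over the 35 windows and 0.384 over all 32851 windows, and 25 of the 35 (71.4%) reached 0.6, against 35.8% of all windows. The E-box itself contains a CpG. Among windows that reached 0.6, the E-box was in 14 of 25 for the germline genes (56.0%) and in 11.3% of all 11765, while GCGGGA was in 9 of 25 (36.0%) and in 43.1%. A match describes letters in the window and is not evidence of a bound site.

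**Figure D1:**
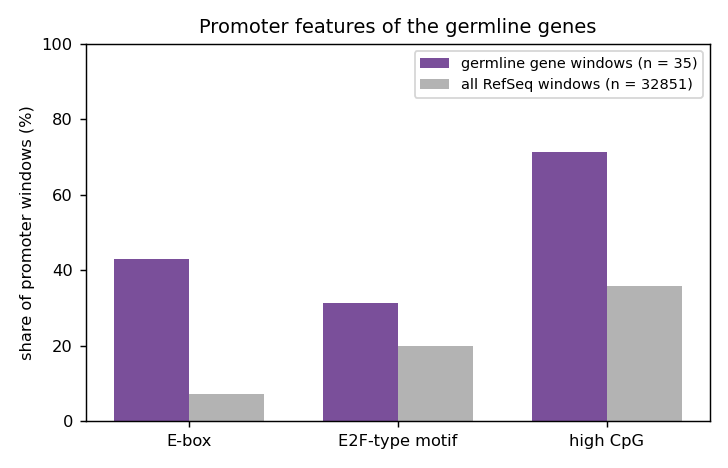
Share of RefSeq promoter windows, in percent, that held the E-box, held the E2F-type motif on either strand, or had an observed to expected CpG ratio of at least 0.6, for the 35 windows of the germline genes (purple) and all 32851 windows (grey). The E-box was in 42.9% of the germline gene windows and 7.15% of all windows, the E2F-type motif in 31.4% and 20%, and high CpG in 71.4% and 35.8%.

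Usp28 KO libraries held 17996611 and 18709558 counts, and control libraries 19533608 and 16595196. The targeted gene Usp28 had 3392 and 3319 counts in the Usp28 KO libraries, against 3690 and 3120 in the control libraries, so the gene-level count does not check the label. The table has no counts per exon. Pluripotency markers were abundant in every library, with a summed level of 4554 and 4891 CPM (counts scaled to library size) over 7 genes in Usp28 KO and 4548 and 4870 CPM in control. Markers of spermatids summed to 0.0535 and 0.107 CPM over 7 genes in Usp28 KO and 0.102 and 0.189 CPM in control, with 3 of the 7, the protamines Prm1 and Prm2 and the transition protein gene Tnp1, at 0 throughout. Markers of fibroblasts summed to at most 1.44 CPM in a library over 8 genes, with Postn, Dcn and Lum at 0. Libraries differed in how levels followed transcript GC content. A library's log2 CPM, less the mean of the others, was rank-correlated with GC across genes at 0.0444 and 0.372 for Usp28 KO replicates 1 and 2 and at 0.0127 and -0.381 for control replicates 1 and 2. The germline genes had a median transcript GC content of 43.9%, against 49.7% over all tested genes, and values after a GC correction are therefore plotted for every tested member and given in the text for those it moved most.

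The germline genes were expressed at low levels, and none passed the test between the groups. Of the 32, 25 had enough reads to be tested (edgeR's filter), 28 had at least 1 read in every library and 2 had none. The tested genes had a median of 1.51 CPM per kilobase of exon (RPKM) over the 4 libraries, against 4.97 RPKM for all 15341 tested genes, and 21 of the 25 lay below that overall median. By edgeR's quasi-likelihood test with Benjamini-Hochberg adjustment over all genes, 0 of 25 were higher and 0 lower in Usp28 KO at an adjusted p under 0.05, where the background was 0% of all genes each way; the lowest adjusted p among them was 0.218, for Dmc1. DESeq2 also called 0 of the 22 that it gave an adjusted p, with the lowest at 0.164 for Zcwpw1, where it called 0.687% of all genes higher and 0.393% lower. At an unadjusted p under 0.05, edgeR counted 5 of the 25 higher and 2 lower, against 6.86% and 4.34% of all tested genes. By DESeq2, 3 of the 25 were higher and 1 lower at that level, against 4.54% and 3.51% of all genes.

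The direction was more often upward than over all genes. Because the members were chosen with earlier results of these data known, the shares below are a description and cannot show an excess over background. The log2 fold change was above 0 for 18 of 25 (72.0%) and below 0 for 7, against 49.4% and 50.6% of all tested genes, and its median was 0.41, against -0.0040. Both Usp28 KO libraries stood above both control libraries for 12 of the 25 (48.0%), against 21.4% of all tested genes, and below them for 2, against 20.4%. The 12 were Tdrd1, Tdrkh, Piwil2, Stk31, Zcwpw1, Dmc1, Stra8, Taf7l, Brdt, Sohlh2, Tuba3a and Slc25a31, and the 2 were Prdm1 and Nanos3. For Sohlh2 and Slc25a31 the gap between the groups was less than the CPM of 1 read. After GC correction the log2 fold change was above 0 for 21 of 25, with a median of 0.49. In bulk RNA, more cells expressing a gene and more RNA per expressing cell cannot be told apart.

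**Figure D2:**
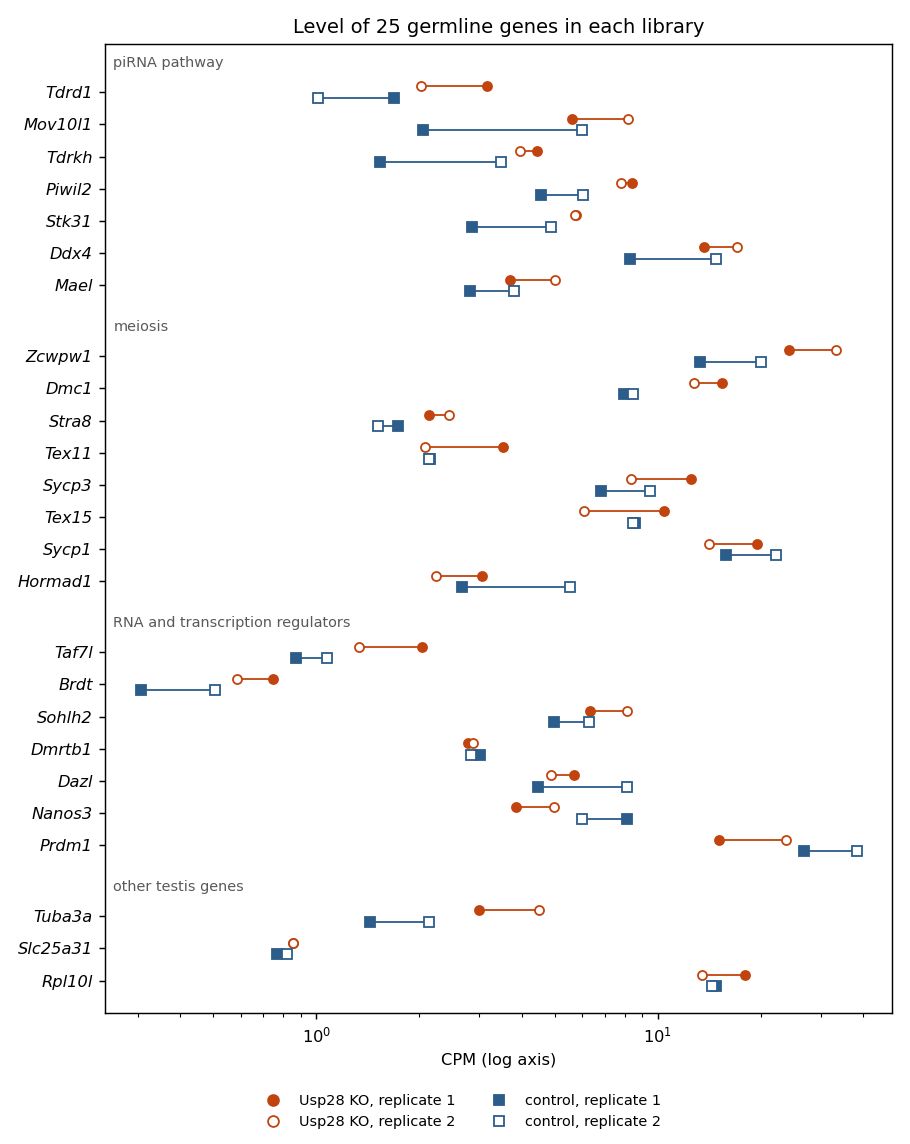
Level of each tested germline gene in each library, in CPM on a log axis; circles are Usp28 KO, squares are control, filled symbols are replicate 1 and open symbols replicate 2, and a line joins the replicates of a group. Both Usp28 KO libraries lie to the right of both control libraries for 12 of the 25 genes and to the left for Prdm1 and Nanos3; control replicate 1 is the lowest library for 15 of the 25.

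The log2 fold change was above 0 for 7 of 7 tested piRNA pathway genes (49.4% of all genes), with a median of 0.61, and none passed the test. Both Usp28 KO libraries were above both controls for 4 of the 7 (21.4% of all genes). Piwil2 (ENSMUSG00000033644, chromosome 14, 70372477 to 70429383), which encodes a PIWI protein that binds piRNAs, stood at 8.40 and 7.79 CPM in Usp28 KO libraries, against 4.56 and 6.05 CPM in control libraries. Both Usp28 KO libraries were above both controls, and the log2 fold change was 0.61 ± 0.27 (SE; edgeR, adjusted p = 0.421). Tdrd1 (chromosome 19, 56826209 to 56870012) encodes a tudor-domain scaffold that binds PIWI proteins. It had 3.16 and 2.03 CPM in Usp28 KO libraries, against 1.69 and 1.01 CPM in control libraries; edgeR gave a log2 fold change of 0.92 ± 0.42, with an adjusted p of 0.440. These rest on 59 and 38 counts in Usp28 KO and on 33 and 16 counts in control. In each group replicate 2 was the lower library, and the groups did not overlap.

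Tdrkh, a tudor and KH domain gene whose mitochondrial protein takes part in trimming piRNA ends, had 4.44 and 3.95 CPM in Usp28 KO libraries, against 1.54 and 3.47 CPM in control libraries. Its exons share 36.7% of their bases with Oaz3 on the opposite strand; Oaz3 had at most 3 counts in a library, but without a stated strand setting reads of the pair cannot be told apart. Stk31, a gene for a tudor and kinase-like protein, had 5.78 and 5.71 CPM in Usp28 KO libraries, against 2.87 and 4.86 CPM in control libraries, with a log2 fold change of 0.58 that was 0.74 after GC correction. For both genes the Usp28 KO libraries agreed closely and control replicate 1 was lowest.

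The helicase gene Mov10l1 (chromosome 15, 88982909 to 89055152), whose product binds piRNA precursors, had 105 and 153 counts in Usp28 KO libraries, against 40 and 95 counts in control libraries. That was 5.62 and 8.16 CPM in Usp28 KO, against 2.05 and 5.99 CPM in control, so that the groups overlapped. Its log2 fold change was 0.80 ± 0.44 (edgeR, adjusted p = 0.548), and ranged from 0.20 without control replicate 1 to 1.74 without control replicate 2, when it passed the test (edgeR, adjusted p = 0.0140) along with 0.775% of all genes called higher. In each comparison with 1 library left out, here and below, that library's group is a single library, so the spread comes only from the 2 libraries of the other group and the lone library is assumed to vary like them. For Mov10l1 the library left out was the control nearer to Usp28 KO. Ddx4 (chromosome 13, 112598333 to 112652475) encodes the Vasa helicase, a classical germ cell marker, and was the most abundant per length of the 9 piRNA pathway members, at 5.10 ± 0.804 RPKM in Usp28 KO and 3.83 ± 1.53 RPKM in control (SD, n = 2 each). Its libraries stood at 13.6 and 17.1 CPM in Usp28 KO, against 8.29 and 14.8 CPM in control. The groups overlapped, and the log2 fold change of 0.42 became 0.050 without control replicate 1 and 0.88 without control replicate 2. Mael, needed in mouse testis for transposon silencing, had 3.69 and 5.01 CPM in Usp28 KO libraries and 2.82 and 3.78 CPM in control libraries, which overlapped.

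Of the 8 tested meiosis genes, none passed the test; 3 had both Usp28 KO libraries above both controls, where 21.4% of all genes did, and 5 overlapped. Dmc1 (ENSMUSG00000022429, chromosome 15, 79561497 to 79605109), the meiotic recombinase gene, had 289 and 240 counts in Usp28 KO libraries, against 155 and 134 counts in control libraries. That was 15.5 and 12.8 CPM in Usp28 KO, against 7.93 and 8.45 CPM in control, with the control libraries close together and both Usp28 KO libraries above them. The log2 fold change was 0.79 ± 0.23 (edgeR, adjusted p = 0.218; 0.206 by DESeq2), a fold of 1.73, and lay between 0.64 and 0.91 whichever library was left out. Zcwpw1 (chromosome 5, 137787798 to 137822621) encodes a reader of the histone marks that PRDM9 places at recombination hotspots. It had the highest CPM of the meiosis genes in Usp28 KO libraries, 24.3 and 33.3, against 13.3 and 19.99 CPM in control libraries. Its log2 fold change was 0.80 ± 0.24 (edgeR, adjusted p = 0.240); the GC-corrected value was 0.92. It was called when control replicate 2 was left out (1.11, adjusted p = 0.0277; 0.775% of all genes called higher) or when Usp28 KO replicate 1 was (1.01, with an adjusted p of 0.0292; 0.691% called higher), which in both cases is the library nearer to the other group. With no filter on low counts, when edgeR called 0.754% of all genes higher and 0.436% lower, Zcwpw1 was called higher (adjusted p = 0.0314) and Prdm1 lower (adjusted p = 0.0480). Exons of Pilra on the opposite strand cover 8.2% of the Zcwpw1 exon bases.

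Stra8, the retinoic acid-induced gene that starts meiosis in germ cells, had 40 and 46 counts in Usp28 KO libraries, against 34 and 24 counts in control libraries; the log2 fold change was 0.49 ± 0.38. Tex11, an X-linked gene of meiotic crossover formation, stood at 3.53 and 2.08 CPM in Usp28 KO libraries and at 2.15 and 2.14 CPM in control libraries. Its excess therefore lay in Usp28 KO replicate 1 only, and the log2 fold change of 0.38, or 0.52 after GC correction, was -0.046 without that library. Tex15, a gene of meiotic DNA repair and of piRNA-directed DNA methylation, likewise spread across its Usp28 KO libraries, at 10.4 and 6.08 CPM, around control libraries at 8.55 and 8.45 CPM. Its log2 fold change was -0.042, and 0.18 after GC correction.

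The groups overlapped for each of the 3 members that encode parts of the chromosome axis or synaptonemal complex. Sycp3, an axial element gene, had 12.5 and 8.32 CPM in Usp28 KO libraries, against 6.81 and 9.46 CPM in control libraries, and a log2 fold change of 0.36 ± 0.28, or 0.73 after GC correction. Of its exon bases, 52.2% lie opposite those of Chpt1, a gene with 295 and 254 counts in Usp28 KO and 233 and 203 in control, so its count is uncertain. Sycp1, the transverse filament gene, was among the most abundant members by counts, with 364 and 264 in Usp28 KO and 310 and 351 in control. Its log2 fold change was -0.18 ± 0.24, and 0.19 after GC correction; its transcript GC content is 34.6%. Hormad1, an axis gene that monitors pairing, had 3.05 and 2.24 CPM in Usp28 KO libraries, against 2.66 and 5.55 CPM in control libraries. Control replicate 2 alone stood apart, and without it the log2 fold change of -0.62 was -0.019. After GC correction with all libraries it was -0.29. In 25.4% of the 50-base windows of its longest transcript, Hormad1 is identical to the pseudogene Gm15529.

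The regulators of germ cell RNA and transcription included the only genes with both Usp28 KO libraries below both controls, Prdm1 and Nanos3, 2 of 7 where 20.4% of all genes did so. Prdm1 (ENSMUSG00000038151, chromosome 10, 44437177 to 44528501) encodes BLIMP1, a transcriptional repressor needed to specify primordial germ cells. It had 282 and 446 counts in Usp28 KO libraries, against 525 and 606 counts in control libraries. That was 15.1 and 23.8 CPM in Usp28 KO, against 26.9 and 38.2 CPM in control, with replicate 2 the higher library in each group. The log2 fold change was -0.74 ± 0.25 (edgeR, adjusted p = 0.306), a fold of 0.598. Beside the call with no filter, it passed the test when control replicate 1 was left out (-0.98, adjusted p = 0.0414; 0.586% of all genes called lower) or when Usp28 KO replicate 2 was (-1.11, with an adjusted p of 0.00893; 1.25% called lower). Each time the library left out was the one nearer to the other group. Nanos3 (chromosome 8, 84173731 to 84185217), an RNA-binding protein gene needed for survival of primordial germ cells, had 3.85 and 4.96 CPM in Usp28 KO libraries, against 8.14 and 5.99 CPM in control libraries. Its log2 fold change was -0.68 ± 0.29 (edgeR, adjusted p = 0.401), and -0.85 after GC correction.

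Of the other 5 regulators, 3 had both Usp28 KO libraries above both controls (21.4% of all genes) and 2 overlapped. Taf7l, an X-linked germ cell paralog of the TFIID subunit gene Taf7, had 38 and 25 counts in Usp28 KO libraries, against 17 and 17 counts in control libraries; edgeR gave a log2 fold change of 0.80 ± 0.45, with an adjusted p of 0.558. Brdt, the testis bromodomain gene, was the least abundant tested member, with 14 and 11 counts in Usp28 KO and 6 and 8 counts in control. Sohlh2, a bHLH factor gene of spermatogonia, had 6.313 and 8.11 CPM in Usp28 KO libraries, against 4.97 and 6.306 CPM in control libraries; its groups were separated by less than the CPM of 1 read (0.0535 and 0.0533 in Usp28 KO, 0.0512 and 0.0631 in control). Dazl, an RNA-binding translation regulator gene, had 5.67 and 4.85 CPM in Usp28 KO libraries, between control libraries at 4.45 and 8.13 CPM. Its log2 fold change of -0.25 was 0.031 after GC correction and 0.23 without control replicate 2. Dmrtb1, which encodes a DM-domain factor, ran from 2.78 to 2.88 CPM in Usp28 KO and from 2.84 to 3.02 CPM in control, with a log2 fold change of -0.050 ± 0.33, or -0.27 after GC correction.

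**Figure D3:**
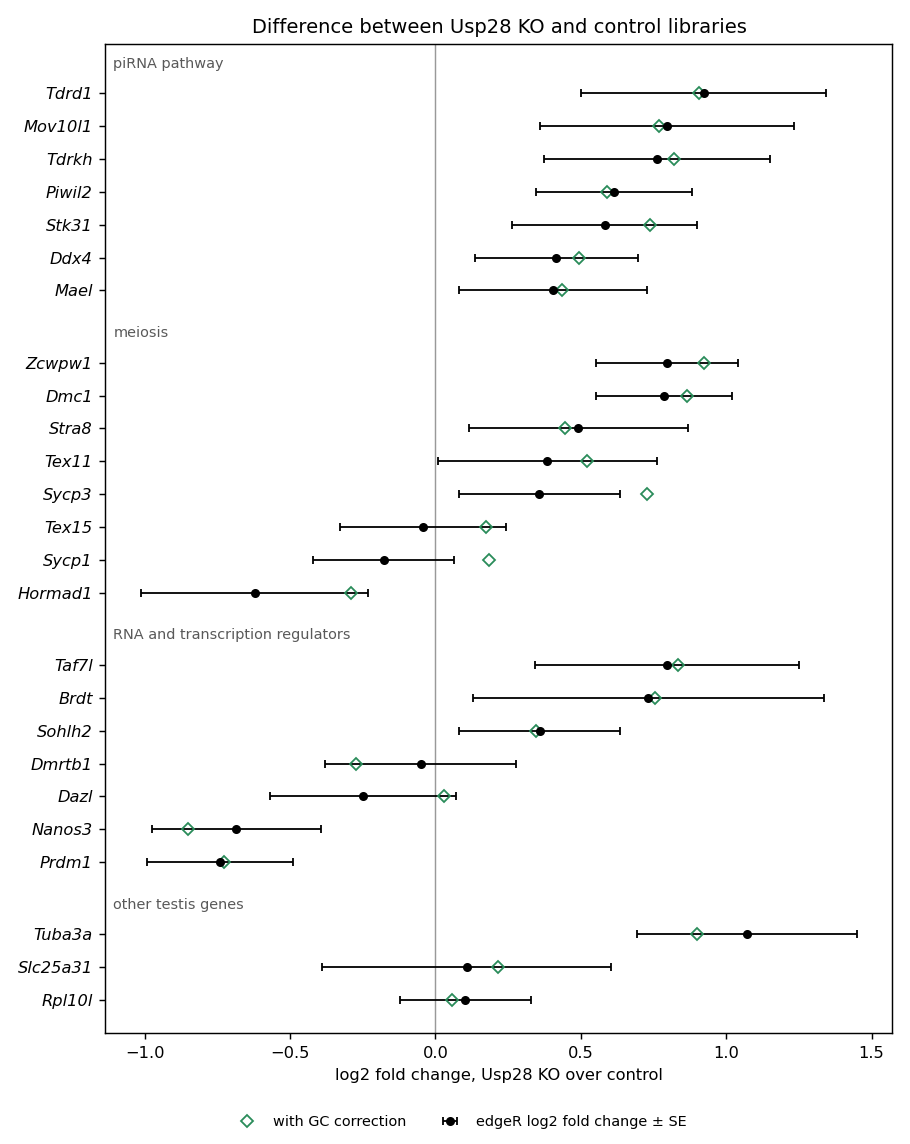
Log2 fold change of Usp28 KO over control for the 25 tested germline genes, grouped by role; black circles and bars are the edgeR estimate ± SE and green diamonds the estimate after GC correction. All 7 piRNA pathway genes lie above 0, Prdm1 and Nanos3 lie lowest, and GC correction moved Sycp3 from 0.36 to 0.73 and Sycp1 from -0.18 to 0.19.

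Among the other testis genes 3 of 8 were tested. Tuba3a (chromosome 6, 125278274 to 125286042), which encodes a testis alpha-tubulin, had the largest log2 fold change of the 25 in the full comparison without GC correction. It had 56 and 84 counts in Usp28 KO libraries, against 28 and 34 counts in control libraries. The edgeR estimate was 1.07 ± 0.38 on the log2 scale, with an adjusted p of 0.322, and 0.90 after GC correction. After that correction the values of Zcwpw1 (0.92) and Tdrd1 (0.91) were larger. Its 50-base windows are identical to Tuba3b in 32.4% of cases, so its reads can be split between the copies. Tuba3b itself had 2 and 1 counts in Usp28 KO and 1 and 5 in control. Exons of 4930417O13Rik on the opposite strand cover 5.0% of the Tuba3a exon bases. That gene had 3 and 3 counts in Usp28 KO and 0 and 0 in control. Rpl10l, an intronless copy of the X-linked ribosomal protein gene Rpl10, was the most abundant member per length, at 15.4 ± 3.10 RPKM in Usp28 KO and 14.3 ± 0.279 RPKM in control (SD, n = 2 each). Of its 50-base windows, 7.6% are identical to Gm14460 and 0 to Rpl10, which itself had 791 and 609 CPM in Usp28 KO and 719 and 598 CPM in control. The log2 fold change of Rpl10l was 0.10 ± 0.22. Slc25a31, the germ cell adenine nucleotide translocase gene, had 16 and 16 counts in Usp28 KO libraries and 15 and 13 in control libraries. Its log2 fold change was 0.11 ± 0.50. In CPM it stood at 0.856 and 0.8535 in Usp28 KO, against 0.7678 and 0.8197 in control. The groups were separated by less than the CPM of 1 read.

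The remaining 7 members were below the filter and were not tested. Asz1, whose mitochondrial protein takes part in piRNA biogenesis, and Magea10, of the X-linked MAGE family, had 0 counts in every library, which allows up to 3 counts, or 0.160 CPM in each Usp28 KO library and 0.154 and 0.189 CPM in the control libraries, counting error only. Tex101, a sperm maturation gene, had 0 and 2 counts in Usp28 KO and 0 and 0 in control. Tdrd9, a tudor and helicase gene of the piRNA pathway, had 7 and 2 counts in Usp28 KO and 2 and 3 in control. Dpep3, a testis dipeptidase gene, had 10 and 5 counts in Usp28 KO and 5 and 5 in control. Exons of Gm45752 on the opposite strand cover 7.0% of its exon bases, and Gm45752 had 17 and 11 counts in Usp28 KO and 15 and 16 in control. Xlr3a, of an X-linked family related to Sycp3, had 5 and 3 counts in Usp28 KO and 0 and 3 in control, and 43.0% of its 50-base windows are identical to Xlr3b. No difference was detectable at this depth for these genes.

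The excess in Usp28 KO depended on which control library it was set against. The sums, ratios and leave-one-out medians here and in the next paragraph carry no GC correction. Relative to the other libraries, levels in control replicate 2 fell with transcript GC (rank correlation -0.381, against 0.0127 for control replicate 1). The germline genes had a median GC content of 43.9%, against 49.7% over all tested genes. How much of the spread follows GC was not tested. Control replicate 1 was the lowest of the 4 libraries for 15 of the 25 tested genes (background 23.3% of all tested genes). Control replicate 2 was above control replicate 1 for 18 of 25, with a median log2 ratio of 0.43. Usp28 KO replicate 2 was above Usp28 KO replicate 1 for 10 of 25, with a median of -0.11. Of all tested genes with a read in every library, 52.2% and 49.3% had replicate 2 above replicate 1 in control and Usp28 KO. Summed over all 32 genes the level was 195 and 197 CPM in Usp28 KO libraries, against 149 and 199 CPM in control libraries. In this total control replicate 2 reached the Usp28 KO level. The total includes Prdm1, at 15.1 and 23.8 CPM in Usp28 KO libraries, against 26.9 and 38.2 CPM in control libraries. That part is lower in Usp28 KO and offsets some of the excess of other members. For the piRNA pathway genes alone the sum was 45.1 and 49.8 CPM in Usp28 KO, against 23.9 and 40.2 CPM in control, and for the meiosis genes 90.8 and 81.4 CPM in Usp28 KO, against 59.0 and 77.7 CPM in control. For both of these sums the groups did not overlap. Without its largest part, Zcwpw1, the meiosis sum was 66.6 and 48.1 CPM in Usp28 KO, against 45.7 and 57.7 CPM in control, which overlap. Leaving out other single members was not tried, so the separation is not credited to Zcwpw1 alone. Without its own largest part, Ddx4, the piRNA pathway sum was 31.5 and 32.8 CPM in Usp28 KO, against 15.6 and 25.3 CPM in control. For the regulators the sum was 36.5 and 46.5 CPM in Usp28 KO, against 48.6 and 63.1 CPM in control, with Prdm1 its largest part; without Prdm1 it was 21.4 and 22.7 CPM in Usp28 KO, against 21.8 and 24.8 CPM in control.

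**Figure D4:**
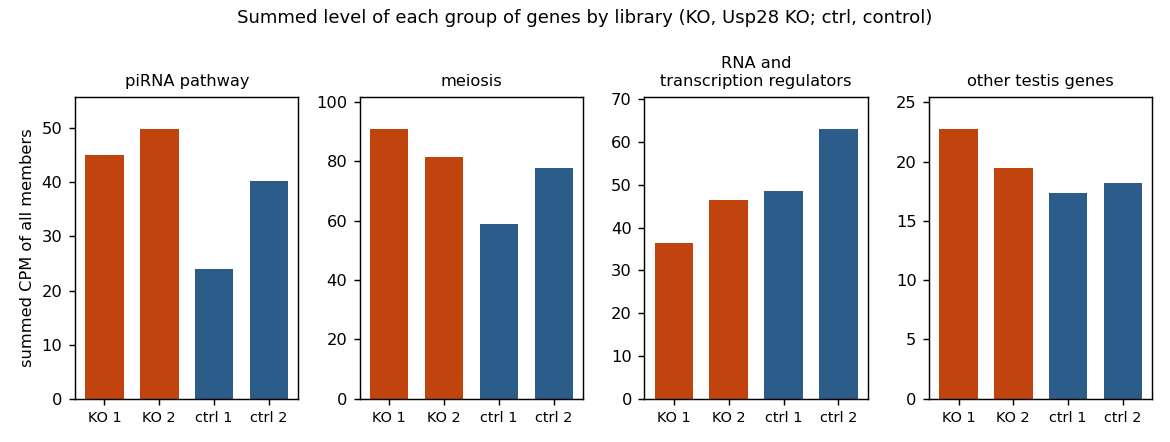
Summed CPM of all members of each role group in each library, with Usp28 KO libraries (KO) in orange and control libraries (ctrl) in blue; each bar is 1 library and each panel has its own axis from 0. The piRNA pathway sum was 45.1 and 49.8 CPM in Usp28 KO and 23.9 and 40.2 CPM in control, so that the replicates of control differ more than those of Usp28 KO.

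With control replicate 1 left out the median log2 fold change of the 25 genes was 0.20, and with control replicate 2 left out it was 0.60. It was 0.53 without Usp28 KO replicate 1 and 0.39 without Usp28 KO replicate 2. The piRNA pathway median was 0.24 without control replicate 1 and 0.88 without control replicate 2, with 7 of 7 genes above 0 in either case. The meiosis median was 0.37 in the full comparison and -0.0048 without Usp28 KO replicate 1. When edgeR's model included replicate number as a block, it called 6 of the 25 higher (Zcwpw1, Dmc1, Mov10l1, Tuba3a, Tdrkh and Piwil2) and 2 lower (Prdm1 and Nanos3), where it called 6.29% of all genes higher and 4.67% lower. With the GC correction and the block together it called 7 higher and 2 lower, where it called 5.56% and 9.30% of all genes. The labels do not say that same-numbered libraries belong together.

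**Figure D5:**
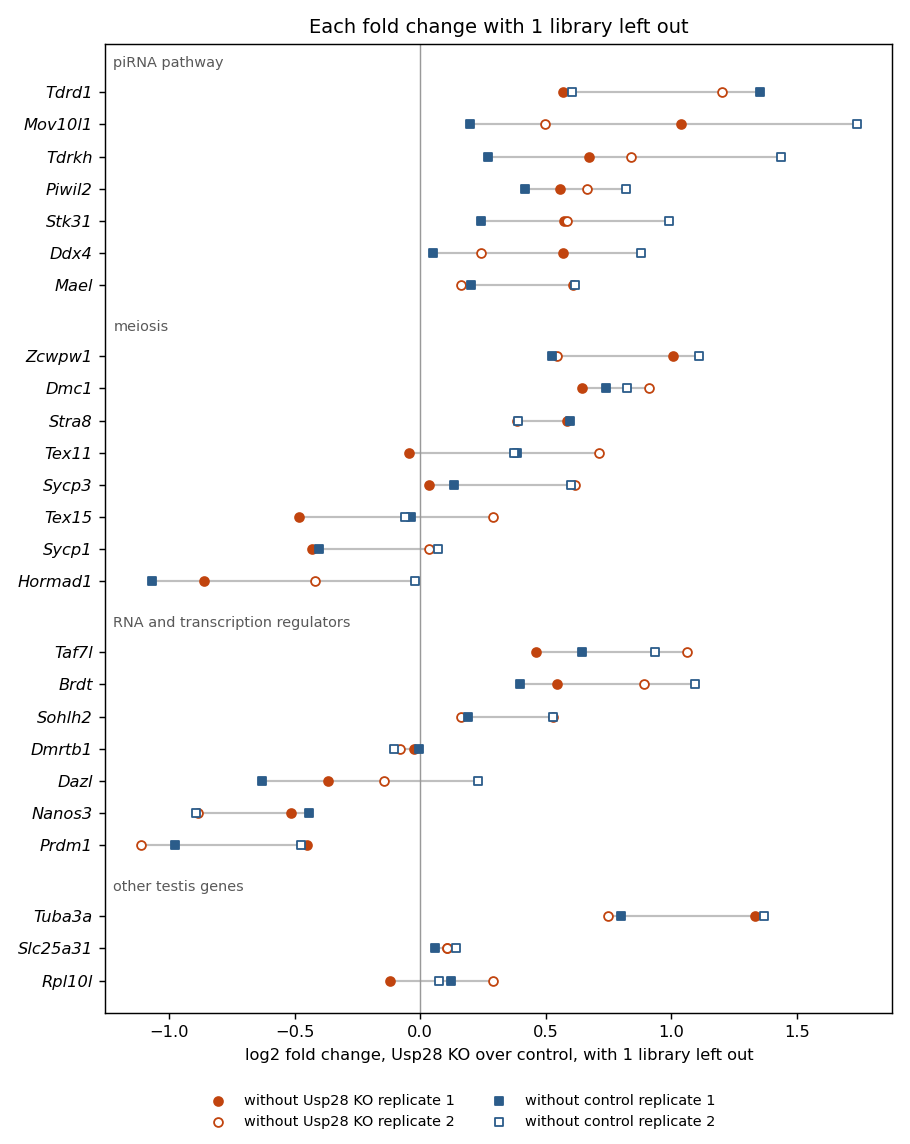
Log2 fold change of Usp28 KO over control for each tested germline gene with 1 library left out in turn; orange circles leave out a Usp28 KO library and blue squares a control library, filled for replicate 1 and open for replicate 2. Dmc1 stays between 0.64 and 0.91 and Prdm1 between -1.11 and -0.45, while Ddx4 runs from 0.050 to 0.88 and Hormad1 from -1.07 to -0.019.

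Members with and without an E-box are set side by side as a description, with no test. Of the tested genes with a promoter window, 9 of 11 with an E-box had a log2 fold change above 0 (median 0.42). Without one, 7 of 11 did (median 0.36). After GC correction the medians were 0.73 and 0.34. Both Usp28 KO libraries were above both controls for 5 of the 11 with an E-box and for 6 of the 11 without. Of all tested genes, 21.4% were. Dmc1, Zcwpw1, Prdm1 and Tuba3a, the 4 members with the smallest p, had no E-box in their windows.

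Other genes of the same pathways, listed by role, also had 0 calls by edgeR, and DESeq2 called 1 of them, Dppa3. These lists too were chosen with earlier results of these data known, so their shares are a description. Of 16 other piRNA pathway genes 12 were tested, with a median log2 fold change of 0.30, 9 above 0 and 0 called by edgeR. Both Usp28 KO libraries were above both controls for 4 of the 12 and below for 0, where 21.4% and 20.4% of all genes were. The 3 with the smallest p, named next, are among those 4. Pld6, a mitochondrial phospholipase gene of piRNA processing, had 11.2 and 11.5 CPM in Usp28 KO libraries, against 8.70 and 6.81 CPM in control libraries. Gpat2, whose mitochondrial protein is tied to piRNA production in mouse testis, had 2.84 and 2.56 CPM in Usp28 KO, against 1.43 and 1.64 CPM in control, and Tdrd5 had 6.42 and 5.33 CPM in Usp28 KO, against 4.095 and 4.099 CPM in control.

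Of 27 other meiosis genes, 21 were tested, with a median of 0.35, 17 above 0 and 0 called by edgeR; both Usp28 KO libraries were above both controls for 12 and below for 2, where 21.4% and 20.4% of all genes were. Mei1, a gene of meiotic break formation, had 13 and 13 counts in Usp28 KO libraries, against 4 and 1 counts in control libraries. Syce1, of the central element of the synaptonemal complex, had 9.15 and 12.1 CPM in Usp28 KO, against 7.12 and 6.18 CPM in control. Msh4, a crossover factor gene, had 2.41 and 3.15 CPM in Usp28 KO, against 1.02 and 1.77 CPM in control. Their edgeR log2 fold changes were 2.26 ± 0.74, 0.67 ± 0.26 and 1.01 ± 0.41 (adjusted p = 0.281, 0.343 and 0.375).

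Among 13 other genes of germ cell specification 8 were tested, with a median of 0.20 and 6 above 0. By edgeR 0 were called, and by DESeq2 1. Both Usp28 KO libraries were above both controls for 2 of the 8 and below for 0, where 21.4% and 20.4% of all genes were. Dppa3, a gene of primordial germ cells and the early embryo, had 17.4 and 14.0 CPM in Usp28 KO libraries, against 3.69 and 6.37 CPM in control libraries; edgeR gave a log2 fold change of 1.65 ± 0.29, with an adjusted p of 0.0611, and DESeq2 an adjusted p of 0.000461, so that Dppa3 was called higher by DESeq2 only. Dnd1 and Nanos1, both RNA regulators of germ cells, had log2 fold changes of 0.48 ± 0.27 and 0.36 ± 0.23. Of 18 other X-linked testis family genes 2 were tested and 10 had 0 counts in every library. The tested ones were the homeobox genes Rhox5, at 3.32 and 3.79 CPM in Usp28 KO and 1.18 and 1.51 CPM in control, and Rhox9, at 1.123 and 0.693 CPM in Usp28 KO and 0.410 and 0.441 CPM in control (edgeR, adjusted p = 0.162 and 0.515).

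The genes of the repressing machinery had medians slightly below 0 and 0 calls by edgeR or DESeq2. The Polycomb complex list (E2f6, Mga, Max and 12 partners) had 15 of 15 tested, a median of -0.11 and 5 above 0, with both Usp28 KO libraries below both controls for 7 and above for 2, where 20.4% and 21.4% of all genes were. The genes with the smallest p were Yaf2, at 11.6 and 10.7 CPM in Usp28 KO and 8.91 and 6.94 CPM in control, Rybp, with a log2 fold change of -0.29 ± 0.18, and Hdac2, with -0.25 ± 0.16. The list of DNA and histone H3 lysine 9 methylation genes had 14 of 14 tested, a median of -0.13 and 4 above 0. In that list both Usp28 KO libraries were below both controls for 4 and above for 2. Atf7ip, a partner of the histone methyltransferase SETDB1, had 111 and 149.6 CPM in Usp28 KO libraries, against 154 and 215.5 CPM in control libraries; edgeR gave a log2 fold change of -0.50 ± 0.20, with an adjusted p of 0.373. Tet2 and Uhrf2 had log2 fold changes of -0.35 ± 0.21 and 0.27 ± 0.17. Whether any of these differences bears on the germline genes was not tested.

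No marker of another cell type was called by edgeR, and some stood apart between the groups. Ascl2, a trophoblast marker, had 16 and 26 counts in Usp28 KO libraries, against 3 and 9 counts in control libraries, and edgeR gave a log2 fold change of 1.68 ± 0.65, with an adjusted p of 0.348. Insl3, a Leydig cell marker, had 52 and 41 counts in Usp28 KO, against 37 and 13 counts in control. Sox7, a primitive endoderm marker, had 3 and 7 counts in Usp28 KO, against 15 and 11 counts in control. Both Usp28 KO libraries were also above both controls for Gata4 and the pluripotency marker Tdgf1, and below them for Star, Amh and the pluripotency marker Zfp42, while Esrrb, Thy1, Pdgfra, Eomes, Zscan4c and Zscan4d overlapped. Somatic testis markers summed to 13.6 and 15.2 CPM over 8 genes in Usp28 KO and to 16.5 and 16.96 CPM in control, with Cyp17a1 and Fshr at 0. Primitive endoderm markers summed to 12.2 and 12.8 CPM over 7 genes in Usp28 KO and to 13.0 and 8.77 CPM in control. Trophoblast markers, mostly Eomes, summed to 13.9 and 22.2 CPM over 7 genes in Usp28 KO and to 13.4 and 20.2 CPM in control. Markers of 2-cell-like cells summed to 3.75 and 1.71 CPM over 7 genes in Usp28 KO and to 2.00 and 2.90 CPM in control, with Tcstv1 at 0. The part of other cells in the germline values was not tested.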

How the data were processed

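Polyadenylated RNA of 2 Usp28 KO and 2 control libraries was sequenced from 1 μg of total RNA (integrity number of at least 6.5) with an Illumina TruSeq kit, per the labels' protocols. The authors deposited raw read counts per gene in the layout of featureCounts. The submitters' processing notes list mm10, HISAT2, featureCounts and DESeq2 and give no version. How strand and multi-mapping reads were handled, and which annotation was used, is not given in the sources used here. Gene identifiers were matched without version suffix to GENCODE M21 (55141 of 55401), and exon length, a deposited column whose unit is other than a count (bases per the file headers), gave RPKM. Positions are the span of annotated exons on mm10.

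Counts were analysed in R 4.3.3. Genes passed filterByExpr (minimum count 10, minimum total 15), which left 15341, and were scaled by TMM. Usp28 KO was compared with control by edgeR 4.0.16 (robust quasi-likelihood test), with Benjamini-Hochberg adjustment over all genes and a threshold of 0.05; SEs are the log2 fold change over the root of F. CPM uses the filtered total times the TMM factor. Alternatives were DESeq2 1.42.0, limma-voom 3.58.1, other scalings, testing without a filter or with at least 50 counts in 2 libraries, a replicate block, a GC correction (per library, a natural spline in transcript GC with 5 degrees of freedom) and leaving out each library. The tests were also run on simulated counts. The outcome is not given here, so how large a change they could detect is not stated.

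The 32 members and all lists were chosen with earlier results of these data known. Named genes are all members, Usp28, up to 3 tested genes of each other list, markers included, by smallest p, and paralogs that can share reads. Chpt1, Oaz3, Pilra, 4930417O13Rik, Gm45752, Gm15529, Gm14460 and the markers at 0 were added after their values were seen. Replicates of a group differed by more than sampling noise (chi-square per degree of freedom 28.2 for Usp28 KO and 30.2 for control).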

Additional observations from a re-analysis of the deposited data

How the results depend on the processing

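Of 319 log2 fold changes of the 25 tested members under 13 alternatives, 281 kept their direction and their side of the test, 24 passed the test where the full comparison did not, and 14 changed sign, in 6 genes that were not called. With library totals Tex15 was 0.025 and Dmrtb1 0.0093. After GC correction Sycp1, Tex15 and Dazl were 0.19, 0.18 and 0.031, and with the replicate block added 0.18, 0.16 and 0.051. Without control replicate 2 Sycp1 was 0.071 and Dazl 0.23, without Usp28 KO replicate 1 Tex11 was -0.046 and Rpl10l -0.12, and without Usp28 KO replicate 2 Sycp1 was 0.033 and Tex15 0.29. With 1 library left out, Sycp1 ranged from -0.43 to 0.071, Tex15 from -0.48 to 0.29, Dazl from -0.63 to 0.23, Tex11 from -0.046 to 0.71 and Rpl10l from -0.12 to 0.29.

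In place of 0 genes higher and 0 lower, DESeq2 called 89 and 51, library totals 24 and 5, no filter 204 and 118, the replicate block 965 and 716, and GC correction with the block 853 and 1425. Leaving out 1 library gave 49 to 146 higher and 31 to 200 lower. Among members, in place of 0 and 0, no filter called 1 higher and 1 lower, the replicate block 6 and 2 and GC correction with the block 7 and 2. Leaving out 1 library gave 0 to 2 higher and 0 to 1 lower. Of the other listed genes, in place of 0 and 0, DESeq2 (Dppa3) and library totals called 1 higher each, no filter 3 higher, the replicate block 13 and 3, and GC correction with the block 10 and 7, and leaving out 1 library gave 1 to 4 higher and 0 to 1 lower. The member median was 0.20 to 0.60 with 1 library left out. The cause of these shifts was not tested. The labels do not say that same-numbered libraries share a batch, so the pairing rests only on the number; replicate differences of the groups correlated at 0.354 over 15341 genes. Depth limits the low members: 1 read was worth 0.0512 to 0.0631 CPM.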

Other observations

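Some meiosis genes outside the 32 repeated the spread between the control libraries; they were chosen after their values were seen. Meiob, a meiotic DNA-binding protein gene, had 80 and 77 counts in Usp28 KO libraries, against 9 and 43 counts in control libraries. Terb1, which tethers meiotic telomeres, had 20 and 18 counts in Usp28 KO, against 3 and 9 counts in control. Smc1b, the meiotic cohesin subunit gene, had 57 and 108 counts in Usp28 KO, against 17 and 77 counts in control. For each of these 3 genes control replicate 1 was the lowest library. That was not general in the list: control replicate 2 was the lowest library for others, including Mei1, Syce1, Syce2, Rec8 and Hormad2. Rec8, for example, had 28.1 and 25.1 CPM in Usp28 KO, against 22.1 and 19.6 CPM in control. For the mismatch repair gene Mlh3 the Usp28 KO libraries were the lower ones, at 53.4 and 57.7 CPM, against 64.4 and 80.9 CPM in control.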
